A study of Mus musculus with 468 samples.

Results

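Some autosomal genes were expressed in adipose tissue of most Diversity Outbred (DO) mice and lay far below their usual level in a minority. A library was called low for a gene when the gene's CPM (count divided by the total count of the library, times 1000000) lay below 0.1 times the gene's median over all libraries. The genes described here, the members, were those on chromosomes 1 to 19 with a median of 5 CPM or more and with 1 to 40 % of libraries low, the gene Nnt being left out of the rule. They made up 1.95 % of the 10656 autosomal genes at that median, 0.897 % of the 23180 genes in the table, and lay on all 19 autosomes. Since these values chose the genes, the number and depth of low libraries are given as a description, without a test.

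Each library came from the gonadal fat pad of 1 DO mouse (DO mice are bred without inbreeding from a mix of inbred lines). All mice were fed a high-fat, high-sugar diet (45 % fat in the labels) from 4 weeks of age. There was 1 group, with no untreated control, and the labels gave a mouse number and a library number but neither sex nor generation. Poly(A) RNA was sequenced to total counts of 35.3 to 137.8 M per library (median 82.04 M, 1 M being 1000000 counts). The adipocyte genes Adipoq (594.6, 2052 and 3888 CPM as lowest, median and highest), Plin1 (620.4, 1480 and 2441 CPM) and Fabp4 (4088, 9548 and 14690 CPM) were high in every library. Y-chromosome counts were present in 51.5 % of libraries and absent from 48.5 %. This split is read from the data and is not a label. It is used below to describe where low libraries lay and in alternative fits. Libraries without and with these counts were as many as the female and male adipose samples the paper lists. The split is therefore taken to be that of sex.

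A gene can be silent in some animals of an outbred stock when the animals carry an allele that is deleted, truncated or poorly transcribed, and it can also be low because a cell type or a hormonal state is missing from the sample. Processed pseudogenes are copies of a spliced messenger RNA that were inserted elsewhere in the genome, so their sequence resembles that of the parent gene, and insertions can be present in one strain and absent from another. Ribosomal protein genes have many such copies. Immunity-related GTPases and major histocompatibility complex (MHC) genes lie in tandem arrays whose gene content varies between strains.

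The sequences show how close some members were to a second gene. In the reference transcripts (GENCODE M21, build GRCm38), Rpl19, a ribosomal protein gene at chr11:98026710-98030492 on the + strand, and its processed copy Rpl19-ps11 at chr8:19492936-19493526 on the + strand aligned over the whole copy with 1 difference (99.83 % identical), G191A (parent base, position counted from the first base of the coding sequence, copy base). Rpl9 at chr5:65388364-65391444 on the - strand and Rpl9-ps6 differed at 1 coding base, G266A, and at 4 bases in all (99.42 % identical). The stretch in which every 100-base read over the differing coding position must lie is printed for both pairs, with the differing base in capitals. Outside the capitals the 2 sequences of a pair are the same.
Rpl19: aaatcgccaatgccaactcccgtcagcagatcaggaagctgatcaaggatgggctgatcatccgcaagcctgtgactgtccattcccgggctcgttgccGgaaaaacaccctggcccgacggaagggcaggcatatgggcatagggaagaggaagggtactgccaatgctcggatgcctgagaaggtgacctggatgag
Rpl19-ps11: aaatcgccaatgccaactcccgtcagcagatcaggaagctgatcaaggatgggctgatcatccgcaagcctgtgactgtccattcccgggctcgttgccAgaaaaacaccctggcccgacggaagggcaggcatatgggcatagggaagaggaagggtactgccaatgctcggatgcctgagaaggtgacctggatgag
Rpl9: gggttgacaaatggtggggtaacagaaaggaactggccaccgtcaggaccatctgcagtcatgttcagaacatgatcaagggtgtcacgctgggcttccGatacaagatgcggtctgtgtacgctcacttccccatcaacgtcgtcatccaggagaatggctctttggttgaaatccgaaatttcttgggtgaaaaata
Rpl9-ps6: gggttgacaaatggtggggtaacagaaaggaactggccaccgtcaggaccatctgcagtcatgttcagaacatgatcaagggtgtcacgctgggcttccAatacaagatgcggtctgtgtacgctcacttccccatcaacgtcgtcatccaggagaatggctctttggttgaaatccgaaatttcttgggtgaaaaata

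Some pairs had no difference at all. The pseudogene Rps16-ps2 matched Rps16, Gm10175 matched Atp5g2 and Gm10359 matched the glycolytic gene Gapdh (1002 bases) over the whole copy with 0 differences. Gm2000 differed from Rpl35 at 2 aligned bases (99.55 % identical), 1 of them coding (C117T). A read from an identical stretch carries no base that tells the copies apart, so counts of such genes depend on how the authors' counting divided shared reads, which was not tested.

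Members fell into 2 shapes. In 48.6 % of members the low libraries were separated: fewer libraries lay between 0.1 and 0.25 times the median than below 0.1. In the other 51.4 %, called tail members, at least as many libraries lay in that band as below 0.1. This definition does not check for a gap. Ifi27l2a, described below, counts as a tail member although a gap lay above its low libraries. The member with the most low libraries was Ppp1ccb, a transcribed pseudogene of the phosphatase gene Ppp1cc, where 39.7 % of libraries had at most 0.826 CPM (median 0.15) and the others started at 13.4 CPM (median 22.1, highest 71.6). In H2-Ea-ps, an MHC class II gene annotated as a polymorphic pseudogene, 134 libraries lay at or below 1.92 CPM (median 0.0513) and the rest at or above 7.81 CPM (median 39.4, highest 299.5). Rpl15-ps3 was similar, with 23.1 % of libraries at or below 4.76 CPM (median 0.345) and the rest at or above 22.9 CPM (median 52.1). In these genes no library lay between 0.1 and 0.25 times the median, which held for 14 members.

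Tail members such as Lep and Alb looked different. Lep, the gene of the satiety hormone leptin, had 27 libraries at or below 110.9 CPM (median 56.5) and its next library at 114.5 CPM, with 59 libraries between 0.1 and 0.25 times its median of 1131 CPM and a highest value of 5701 CPM. Alb, the liver's main plasma protein, had 17 libraries at or below 2.12 CPM and 51 in the same band. For Lep and Alb the 0.1 line cut through an unbroken distribution. The share of low libraries had a median of 4.59 % over the members: 59 members reached 10 % and 45 stayed under 2 %. It was higher in separated (median 10.5 %) than in tail members (2.78 %), a difference the definition of the shapes favours.

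**Figure D1:**
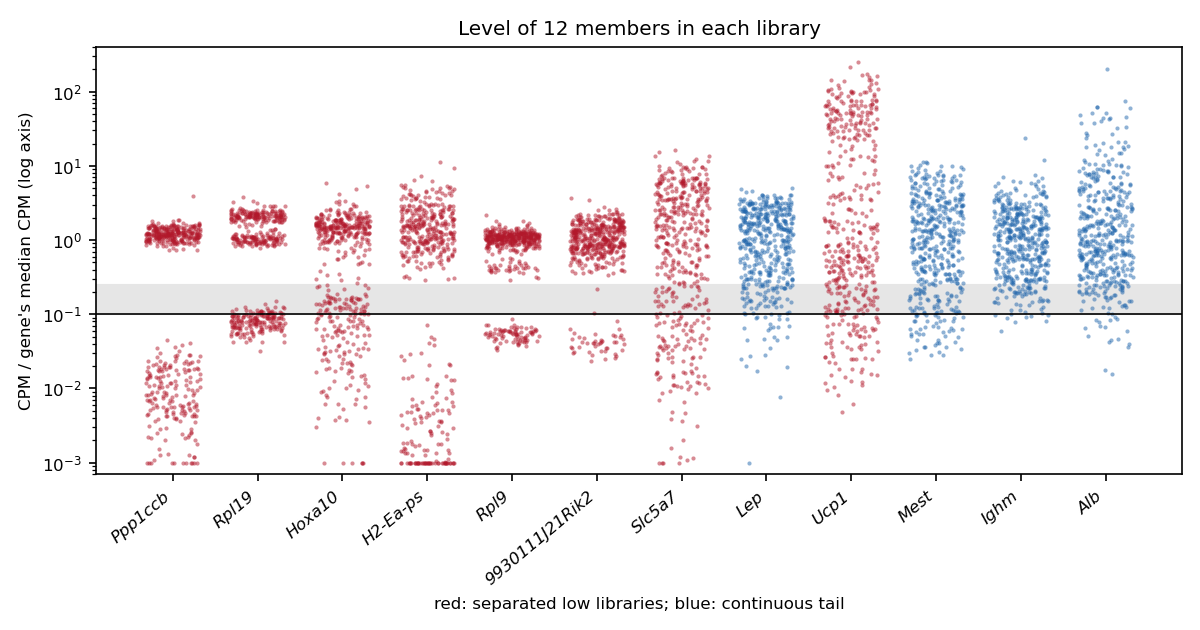
CPM of 12 members divided by the gene's median, in each library (1 point a library, log axis, values under 0.001 drawn at 0.001). Red marks members with separated low libraries and blue those with a tail, the line is 0.1 and the grey band reaches 0.25 times the median. Ppp1ccb, H2-Ea-ps and Rpl9 have an empty band, while 59 libraries of Lep lie in it.

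In most members low did not mean absent. No low library was near zero (3 counts or fewer) in 57.7 % of members, namely in 27.7 % of separated and 86 % of tail members. In 20 members at least as many low libraries were near zero as not. Gm10359, low in 39.5 % of libraries, had the most near-zero libraries of all members. Rpl19, by contrast, never fell below 3.37 CPM. At the median cut-off of 5 CPM, the 0.1 line corresponds to 17.65 counts in the shallowest library, above that floor of 3 counts.

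By biotype, the share of genes that were members was largest among pseudogenes. Of the pseudogenes with a median of 5 CPM or more, 43.6 % (65) were members, and 57 of these were separated. Of 10313 protein-coding genes 1.27 % were members, 40 separated and 91 with a tail, and of other non-coding genes 6.19 % (12). Genes with a provisional name (Gm or Rik) gave 64 members (15.1 % of such genes). Ribosomal protein genes and their pseudogenes, taken by name, gave 19 of 97 (19.6 %), 17 of them separated. These classes overlap, and no test was made, because the rule selects on the same values.

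Regulators and immune genes were among the members that were no pseudogenes. Hoxa10, a homeobox gene of posterior body patterning that also acts in the reproductive tract, had 117 low libraries (25 %), which lay at or below 0.723 CPM. BC018473, an antisense transcript on chromosome 11, had 33.8 % of libraries at or below 0.653 CPM with only 2 in the band above. Mndal and Ifi202b, neighbouring interferon-inducible genes of chromosome 1, had 23.9 % and 3.42 % low libraries. Ifi27l2a, an interferon-induced gene with a median of 393.1 CPM, had 7 libraries at or below 4.53 CPM and its next library at 62.9 CPM.

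Sequence sharing set the separated members apart in description. When every 50-base window of a gene's transcripts was looked up in all other genes, 78 members (37.5 %) shared 50 % or more of their windows with a second gene, against 1.56 % of 10448 non-members. It was 66 separated members (65.35 %) and 12 tail members (11.2 %). The median share of windows was 86.6 % in separated and 0 in tail members, and 0 in non-members. In the separated pseudogenes it reached 100 %. The rule does not use sequence, and of all genes that shared as much, 32.4 % were members.

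Parent and copy had opposite low libraries in several of these pairs. Rpl19 was below 0.25 times its median in 38.5 % of libraries (3.37 to 15.9 CPM), where Rpl19-ps11 had a median of 212.2 CPM. Rpl19-ps11 was below 0.25 times its own median in another 34.4 %, where Rpl19 had a median of 224.5 CPM and never fell below 156.8 CPM. In the remaining 27.1 % both were present, at medians of 108.6 and 114.2 CPM. These 3 sets account for all libraries, and 0 libraries were low for both genes. The summed CPM of both genes had a median of 221.2, 225.1 and 226.4 in the 3 sets. Its coefficient of variation (CV) over libraries was 16.25 %, against 86.5 % for Rpl19 and 82.5 % for Rpl19-ps11.

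Rpl35, another protein of the large ribosomal subunit, and Gm2000, both named after their values were seen, behaved the same way. Rpl35 was low in 49 libraries, at or below 5.56 CPM with a next library at 16.9 CPM, and Gm2000 had a median of 108.2 CPM there. Gm2000 was low in 61 libraries and Rpl35 had a median of 113.3 CPM there. No library was low for both, and the CV of the sum was 19.45 % against 53.3 % and 57 %. Rpl9 was low in 82 libraries, at or below 16.7 CPM, and Rpl9-ps6, which is no member because its median is 0.168 CPM, had a median of 197.3 CPM in them and 0.11 CPM in the others. The sum of Rpl9 and Rpl9-ps6 was 207.7 against 209.6 CPM. Atp5g2, which encodes a ring subunit of the mitochondrial ATP synthase, and Gm10175 shared 0 of their 21 and 61 low libraries (4.49 % and 13.03 % of all libraries), with a CV of 14.3 % for the sum.

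**Figure D2:**
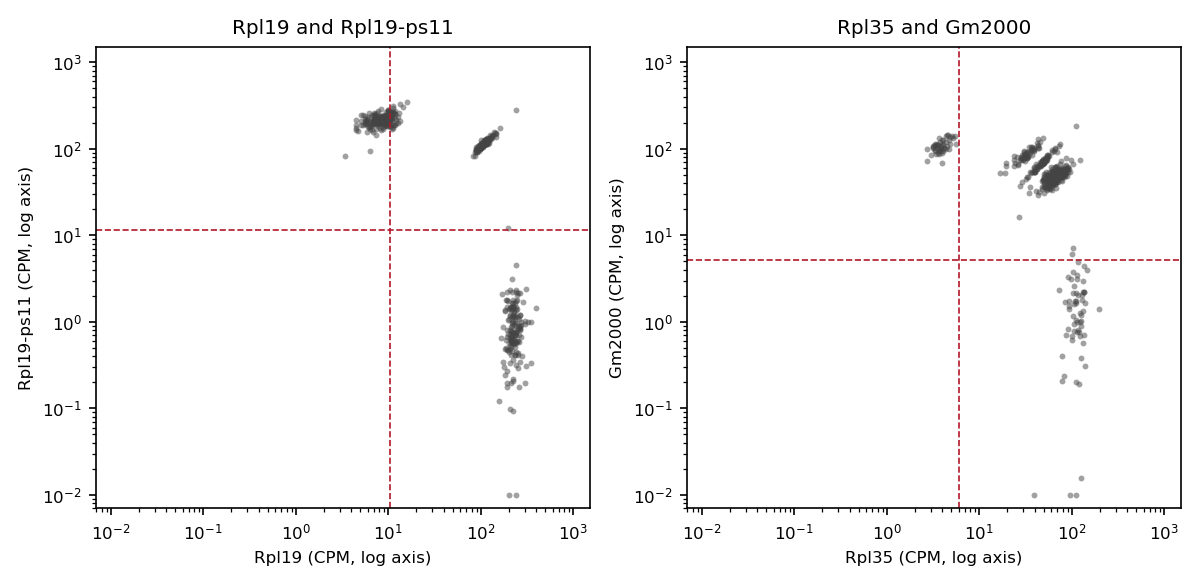
CPM of Rpl19 against Rpl19-ps11 and of Rpl35 against Gm2000 in each library (log axes, values under 0.01 CPM drawn at 0.01, dashed lines at 0.1 times each gene's median). Each pair forms groups with either gene low and groups with both present, and no library lies below both lines.

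Not every member with a copy followed this pattern. Over the 78 members that shared 50 % or more of their windows with the closest gene, that gene was higher in the member's low libraries in 52, with a median ratio of 1.22. The sum varied less than either gene in 67. When member and closest gene were added, 65 of the 78 sums had 0 low libraries and 13 still had enough to meet the 1 % limit. These counts cannot show that a copy compensates. The closest gene was less abundant than the member in only 24 of the 78, and a sum with a far more abundant gene can hardly be low. The sum of Gm13841 and Gm8210, which were low together, also varied less (CV 65.12 %) than either gene (73.28 % and 75.82 %). Among the sums that stayed low were pairs whose genes were low together, such as 9930111J21Rik1 with 9930111J21Rik2 (44 low libraries of the sum), Ccl21a with Gm21541 (46) and Gm13841 with Gm8210 (47). Gm13394 and Gm10359, both Gapdh copies, had Gapdh levels in their low libraries of 0.854 and 0.918 times those in the others. In Rps2, a protein of the small ribosomal subunit and not among the 78, 15 low libraries lay at or below 25.6 CPM against a median of 396.6 CPM. Adding its closest copy, Rps2-ps10, with which it shared 34.6 % of its windows, left 26.1 CPM. Only the closest gene was added to each member, so counts held by any further copy were not examined.

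Members were chained into clusters where their starts lay within 1 Mb. By this measure 59 members (28.4 %) had another member near, in 23 clusters, beside 24.3 % of non-members of the same expression that had a member near. Sharing of low libraries was usually weak. Of 53 pairs within 1 Mb, 4 shared 40 % or more of the low libraries of each gene, and 14 shared 0. On the same chromosome but farther apart it was 4 of 1199 pairs, and on different chromosomes 48 of 20276.

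The cluster whose genes shared most low libraries lay at chr11:48904656-49679057 and held 5 members. It is part of an array of interferon-inducible GTPases, enzymes of cell-autonomous defence against intracellular pathogens. 9930111J21Rik1 (median 5.2 CPM) and 9930111J21Rik2 (28.6 CPM) were each low in 44 libraries, 43 of them the same (97.7 % of each). The first shared 80.4 % of its windows with the second, and the second 56.1 % with the first. Their counts therefore depend on how shared reads were divided. Tgtp2, a T-cell-specific GTPase gene, was low in 26 libraries, at or below 0.217 CPM with a next library at 0.847 CPM, and all 26 were low for 9930111J21Rik2 and 25 for 9930111J21Rik1. Gm12185, at the edge of the array, was low in 31 libraries, and none of these was low for 9930111J21Rik1, 9930111J21Rik2 or Tgtp2. Those 3 genes were low in only 9.4 %, 9.4 % and 5.56 % of all libraries, and nothing is read from the lack of overlap. Gm12191, a pseudogene in the same interval, shared 96.7 % of its windows with Rpl30-ps9 and was low in 28 libraries. It shared 4 of these (14.3 %) with 9930111J21Rik2.

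The promoters of genes in this cluster were read from the RefSeq-derived table (build GRCm38.p6, 110 members matched by symbol). The 250 bases before the annotated start are printed on the gene's strand, for Gm12185 (chr11:48927183-48927432, - strand), Tgtp2 (chr11:49064213-49064462, - strand) and 9930111J21Rik1 (chr11:48979382-48979631, - strand). Capitals mark matches to TTTCNNTTT, part of the interferon-stimulated response element, and to TTCNNNGAA, a STAT-type site, on either strand.
Gm12185: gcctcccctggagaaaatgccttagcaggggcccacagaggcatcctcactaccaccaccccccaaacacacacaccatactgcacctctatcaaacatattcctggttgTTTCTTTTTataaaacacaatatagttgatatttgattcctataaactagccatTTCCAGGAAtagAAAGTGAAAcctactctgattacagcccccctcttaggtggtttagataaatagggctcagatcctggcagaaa
Tgtp2: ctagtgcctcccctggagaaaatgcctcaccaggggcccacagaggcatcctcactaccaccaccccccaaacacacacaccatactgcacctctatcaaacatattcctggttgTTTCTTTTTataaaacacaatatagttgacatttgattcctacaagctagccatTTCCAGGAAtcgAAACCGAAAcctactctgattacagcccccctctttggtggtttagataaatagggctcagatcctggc
9930111J21Rik1: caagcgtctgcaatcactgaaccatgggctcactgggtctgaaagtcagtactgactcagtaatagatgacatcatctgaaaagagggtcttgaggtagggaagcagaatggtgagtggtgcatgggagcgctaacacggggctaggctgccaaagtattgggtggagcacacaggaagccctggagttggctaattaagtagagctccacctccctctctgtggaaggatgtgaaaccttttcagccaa

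Gm12185 and Tgtp2 had promoters 96.3 % identical, with 2 matches to TTTCNNTTT and 1 to TTCNNNGAA in both. 9930111J21Rik1 and 9930111J21Rik2, whose low libraries were nearly the same, were identical over the aligned bases and held neither motif in this window. Over all 32851 promoters, 9.37 % held TTTCNNTTT and 7.02 % held TTCNNNGAA, and of the 27025 genes with a promoter, 10.8 % and 8.13 % had one that did. Of the 110 members with a promoter, 15 (13.6 %) and 7 (6.36 %) did. A match describes letters in the window and not a bound site.

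The MHC on chromosome 17 held 2 clusters. In the class I part (chr17:35552128-36168537), Gm8909 was low in 23.9 % of libraries, Cdsn in 61 libraries, H2-T-ps in 65, Gm10499 in 36 and H2-T22 in 30. Gm8909 shared 37 with Cdsn and 31 with Gm10499, which is 86.1 % of the latter's. Cdsn encodes corneodesmosin, a skin adhesion protein, and H2-T22 a non-classical class I molecule. In the class II part, H2-Ea-ps shared 5 of its 134 low libraries (3.73 %) with H2-Eb1 (46 low, at or below 7.09 CPM), whose products pair in the I-E antigen-presenting molecule. H2-Eb1 was low in 9.83 % of all libraries. With Gm8909, which lies 1.82 Mb away and was low in 23.9 % of all libraries, H2-Ea-ps shared 65 (48.5 %).

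Smaller clusters were mostly of unlike genes. Tmem254c and Tmem254b on chromosome 14, near-copies of one membrane protein gene, were low in 8 and 16 libraries, and all 8 were shared. Sfrp5, a secreted Wnt inhibitor of adipose tissue, shared 33 of its 86 low libraries with Crtac1 (39 low) on chromosome 19, while Golga7b had only 5. Nnat, an imprinted gene of the endoplasmic reticulum, and Lbp, a lipopolysaccharide-binding protein gene, shared 5 of 20 and 11. Low libraries of Sfrp5 (85), Crtac1 (38), Nnat (19) and Lbp (all 11) nearly all lacked Y-chromosome counts. Gm10182 and Rpl15-ps3 shared 27 low libraries (21.6 % of those of Gm10182), no more than the 23.1 % of all libraries in which Rpl15-ps3 was low. Cnn1, a smooth-muscle calponin, lay beside them with 12. Mndal and Ifi202b shared 0, and Ifi202b was low in 3.42 % of all libraries.

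Trim5, of a family of antiviral restriction factors, and Gvin1, a very large interferon-inducible GTPase, were noted after their values were seen. They lie 1.89 Mb apart on chromosome 7. Gvin1 was low in 55 libraries, at or below 1.44 CPM with a next library at 2.18 CPM, and 33 of these were near zero. All 55 were among the 75 low libraries of Trim5. Both sets were spread over libraries without and with Y-chromosome counts, 29 and 26 for Gvin1 and 38 and 37 for Trim5. Gvin1 shared 98.3 % of its windows with Gm4070, Tgtp2 85.8 % with Tgtp1 and Ccl21a 71.6 % with Gm21541, so their counts are uncertain in the same way as those of the pseudogenes.

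Genes on different chromosomes also shared low libraries, and the pairs with the largest shares were noted after their values were seen. Mmrn1 and Ccl21a, a glycoprotein and a chemokine of lymphatic vessels on chromosomes 6 and 4, shared 40 of 44 and 45. Of these low libraries, 37 and 38 lacked Y-chromosome counts. Sfrp5 shared 76 of its 86 with Slc5a7, a choline transporter gene low in 110 libraries, and 56 with Mmp12, a macrophage metalloelastase low in 76. Of the low libraries, 85 of Sfrp5 and 75 of Mmp12 lacked Y-chromosome counts, and 1 of Slc5a7 had them. Without these counts, Slc5a7 was low in 48 % and Mmp12 in 33 % of libraries, and with them both in 0.415 %. Sharing within either kind of library was not examined. Jchain and Igkc, which encode parts of secreted antibodies, shared 14 of 23 and 17. Cyp2e1, a cytochrome P450, and Cfd, the adipokine adipsin, shared 14 of 31 and 16. Of these low libraries, 30 of 31 and all 16 had Y-chromosome counts. In whole tissue, fewer cells of a type and less RNA per cell cannot be told apart.

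**Figure D3:**
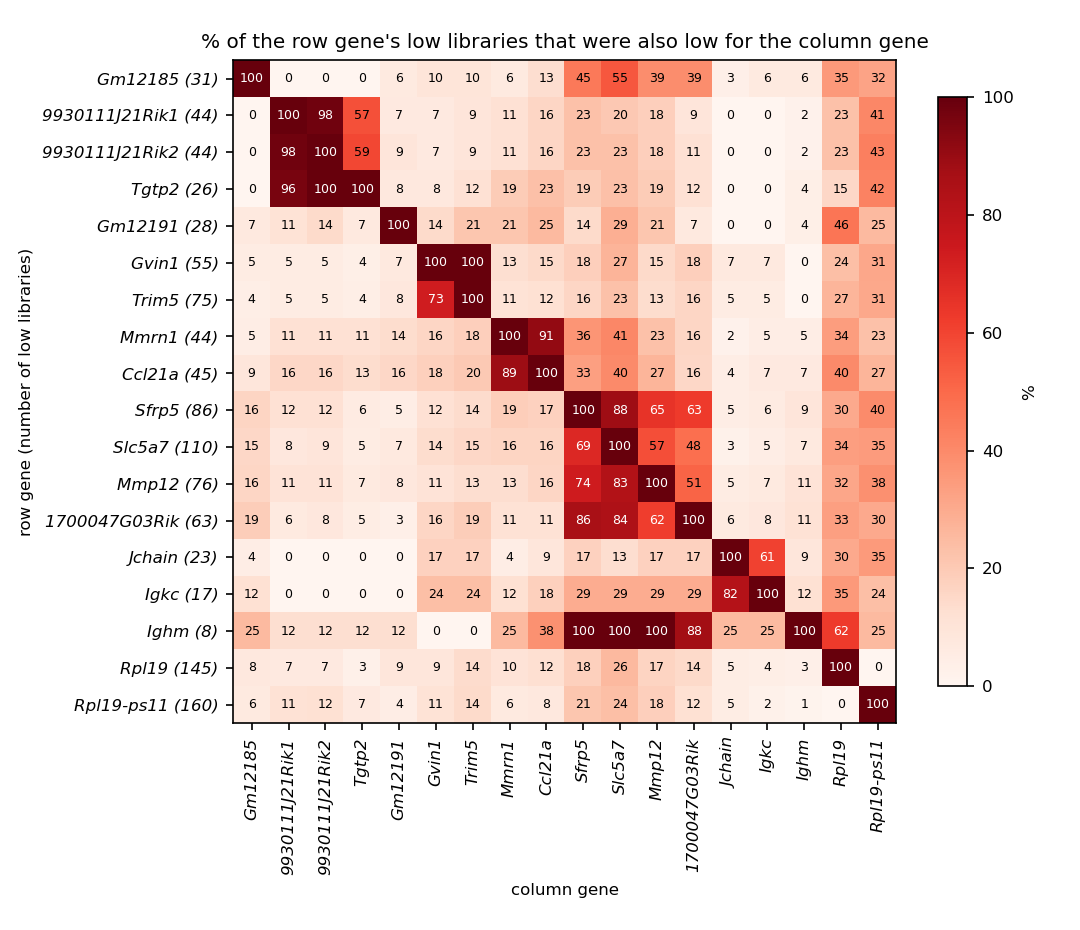
Percent of the low libraries of the gene in the row (its number in brackets) that were also low for the gene in the column, for 18 members. The chromosome 11 genes, Gvin1 with Trim5, Mmrn1 with Ccl21a, and Sfrp5 with Slc5a7 form dark blocks, and Rpl19 and Rpl19-ps11 share 0.

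Summed markers of cell types differed between the low and the other libraries of several of these genes. Low and other libraries also differed in Y-chromosome counts. Of the low libraries, 75 of 76 for Mmp12 and 37 of 44 for Mmrn1 lacked these counts, and all 17 for Alb had them. The ratios below therefore also compare these kinds of library, and they were not taken within either kind. In the 76 low libraries of Mmp12 the summed CPM of Adgre1, Cd68, Csf1r and Lyz2 ranged from 130.7 to 752.2 (median 360.4), against 218.6 to 4160 (median 678.7). The ratio of these medians was 0.531, and in the same libraries it was 0.223 for epithelial markers (Epcam, Krt14), 0.447 for skeletal muscle markers (Ckm, Mylpf, Acta1, Tnnt3), 0.696 for the lymphatic markers named next and 0.816 for adipocyte markers (Adipoq, Cidec, Plin1, Lep, Fabp4), so the lower level was not particular to macrophage markers. Lymphatic markers chosen after values were seen (Lyve1, Prox1, Flt4, Pdpn, Reln) summed to a median of 65.3 CPM (28.1 to 117.6) in low libraries of Mmrn1 against 98.4 CPM (30.2 to 228.2), a ratio of 0.664, beside 0.384 for the epithelial and 0.92 for the macrophage markers. In the low libraries of Alb, Apoa2 and Ttr summed to a median of 0.172 CPM (0.0241 to 1.21) against 1.77 CPM (0 to 250.6), while the macrophage and epithelial markers had ratios of 2.68 and 2.84. The part of cell composition in these low libraries was not tested.

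In the list of leptin and fat expansion genes, of 9 genes with a median of 5 CPM or more, 6 were members: Npr3, Lep, Nnat, Mest, Sfrp5 and Mmp12. Npr3, the natriuretic peptide clearance receptor, had 11 low libraries at or below 104.6 CPM against a median of 1201 CPM in the others. Mest, an imprinted hydrolase gene that marks expanding fat, had 47 at or below 11.5 CPM with a highest value of 1325 CPM. Nearly all of these low libraries lacked Y-chromosome counts: 44 of 47 for Mest, 24 of 27 for Lep, 85 of 86 for Sfrp5, 75 of 76 for Mmp12 and 11 of 11 for Npr3.

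Thermogenic genes gave 3 members of 8. Ucp1, the uncoupling protein of brown fat, had 74 low libraries at or below 1.31 CPM and reached 3308 CPM. Otop1, a proton channel gene, had 29 and Slc27a2, a fatty acid transporter, 83. Of the low libraries of Ucp1, 71 had Y-chromosome counts and 3 did not, the reverse of the fat expansion genes. The median of Ucp1 was 429.9 CPM in libraries without and 3.1 CPM in libraries with these counts, while that of Lep was 497.8 and 2066 CPM.

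Immune and plasma protein lists followed. Complement gave 3 members of 13, namely Cfd, C6 and C7, and all 18 low libraries of C7, a terminal complement component, lacked Y-chromosome counts whereas all 16 of Cfd had them. Macrophage genes gave 3 of 14 (Trem2, Mmp12 and Itgax), interferon-induced genes 4 of 20 (Ifi27l2a, Ifi202b, Iigp1 and Mndal), MHC genes 3 of 18 (H2-Eb1, H2-T22 and H2-Ea-ps) and cytochromes P450 2 of 15 (Cyp2e1 and Cyp4f16). The 3 B cell genes at this expression (Ighm, Igkc and Jchain) and both liver genes (Alb and Serpina1b) were members. Single members came from the skeletal muscle (Acta1), pancreas (Cela1), nerve and glia (S100b), mesothelium (Slpi) and adipokine (Cfd) lists. No member came from lipid synthesis (0 of 15), clock (0 of 15), immediate early (0 of 10), glucocorticoid response (0 of 9), glutathione S-transferase (0 of 17), core histone (0 of 7), haemoglobin and red cell (0 of 3) or Schlafen and Nlr genes (0 of 3). T cell, epididymis and epithelium lists had 0 genes at this median.

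Members whose low libraries split by Y-chromosome counts were mainly tail members. In 31 members 90 % or more of the low libraries lacked these counts, 28 of them tail members, and in 12 members 90 % or more had them, 8 of them tail members. Hoxa10 was the extreme, with 0 of its low libraries lacking Y-chromosome counts and medians of 11.3 CPM without and 0.745 CPM with. Slc5a7 was its opposite, with 1 of its 110 low libraries having them. Ribosomal genes and copies varied: Rpl9 had 41 low libraries without and 41 with these counts and Rpl19 69 and 76, while Rps2 had 13 and 2 and Rpl36a-ps2 0 and 16. Y-chromosome counts were chosen from the data, and no test was made of this split.

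**Figure D4:**
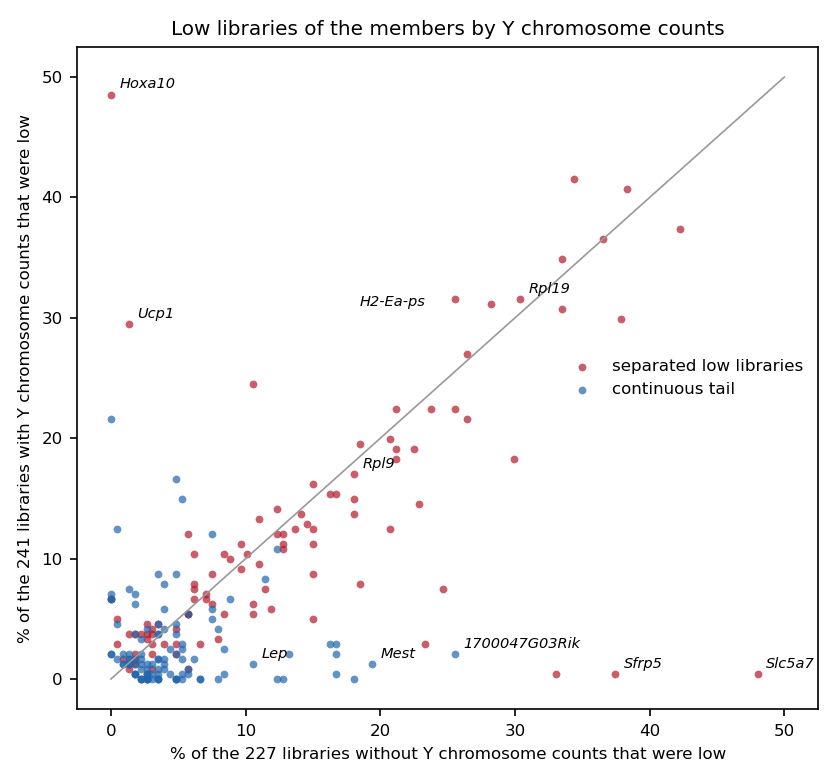
Percent of the libraries without (horizontal) and of the libraries with Y-chromosome counts (vertical) that were low, for each member. The line marks equal shares, near which Rpl9, Rpl19 and most other separated members (red) lie, while Hoxa10 and Ucp1 lie far above it and Slc5a7 and Sfrp5 far below, and tail members (blue) reach at most 25.6 % and 21.6 %.

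When the rule was applied within each kind of library, with medians taken there, 0.764 % of all genes met it in libraries without and 0.841 % in libraries with Y-chromosome counts. Of the members, 74.5 % met it in the first kind, 76.9 % in the second, 61.1 % in both and 9.62 % in neither. It was met in both by 79.2 % of separated and 43.9 % of tail members.

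Single libraries differed in how many members were low. The number of low members per library ran from 4 to 53 with a median of 16. For separated members it ran from 4 to 27 (median 13) and no library had 0, and for tail members from 0 to 33 (median 3), with 35 libraries at 0. The library of mouse DO222 had the most (53), followed by DO349 (48), DO158 (45), DO237 (44) and DO330 (44). None of the 5 had Y-chromosome counts. Their summed macrophage markers had a median 0.343 times that of the rest (130.7 to 523.8 CPM against 159.9 to 4160 CPM) and their summed adipocyte markers 11130 against 16890 CPM, and the part of this in their low members was not tested. Without these 5 libraries 94.7 % of the members still met the rule, and 11 did not.

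Drift was tested over mouse number, which the rule does not use. For each gene with 5 or more low libraries the mean mouse number of its low libraries was compared with that of the others by a two-sided permutation test (100000 permutations, Benjamini-Hochberg over all 3166 genes tested). None of the members passed at an adjusted p of 0.05, beside 33 of the 3166 genes (1.04 %, with 0.19 % higher and 0.853 % lower). At an unadjusted p under 0.05 there were 22 members (10.6 %), beside 9.38 % of all genes tested. The same test gave 0 members for library number (0 % of all genes, with 18 members under an unadjusted 0.05) and 0 members for total count (0.569 % of all genes, with 14 members under an unadjusted 0.05).

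The members nearest to the threshold lay in both directions. Serpina1b, a protease inhibitor of liver and plasma, had a mean mouse number of 221.26 in its 77 low libraries and 284.48 in the others (permutation p = 0.00089, adjusted p = 0.0704). Its low libraries made up 31.9 % of the first 94 mice and 10.8 to 14.9 % of each later block when the libraries were cut into 5 blocks by mouse number. H2-Ea-ps went the other way, with 309.01 against 260.06 (permutation p = 0.00166, adjusted p = 0.114) and 39.8 % of the last block low. Rpl36a-ps2 (386.25 against 270.11, 16 low libraries) and Acsm3, a medium-chain acyl-CoA synthetase gene (369.19 against 269.61, 21 low libraries), had adjusted permutation p-values of 0.135 and 0.158. Gm10175 had 221.75 against 281.92 (adjusted permutation p = 0.201) and Ucp1 317.34 against 265.95 (adjusted permutation p = 0.238). Mouse number was higher on average in libraries with Y-chromosome counts than without (mean 242.3 without). Low libraries of Ucp1 (71 of 74) and Rpl36a-ps2 (all 16) had these counts. Among libraries with them the means were 323.7 against 295.8 for Ucp1 and 386.2 against 298.2 for Rpl36a-ps2. H2-Ea-ps and Serpina1b kept their direction within both kinds of library. No test was made within either kind. The other members nearest to the threshold had adjusted p-values of 0.22 to 0.488 by the same permutation test. Higher mouse numbers in the low libraries were seen for Gm20400, Coro2a, Gm15427 and Gm8186, and lower ones for Gm6768, Gm7666, Gm8797, Kcnj15, 1700047G03Rik and D430019H16Rik.

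**Figure D5:**
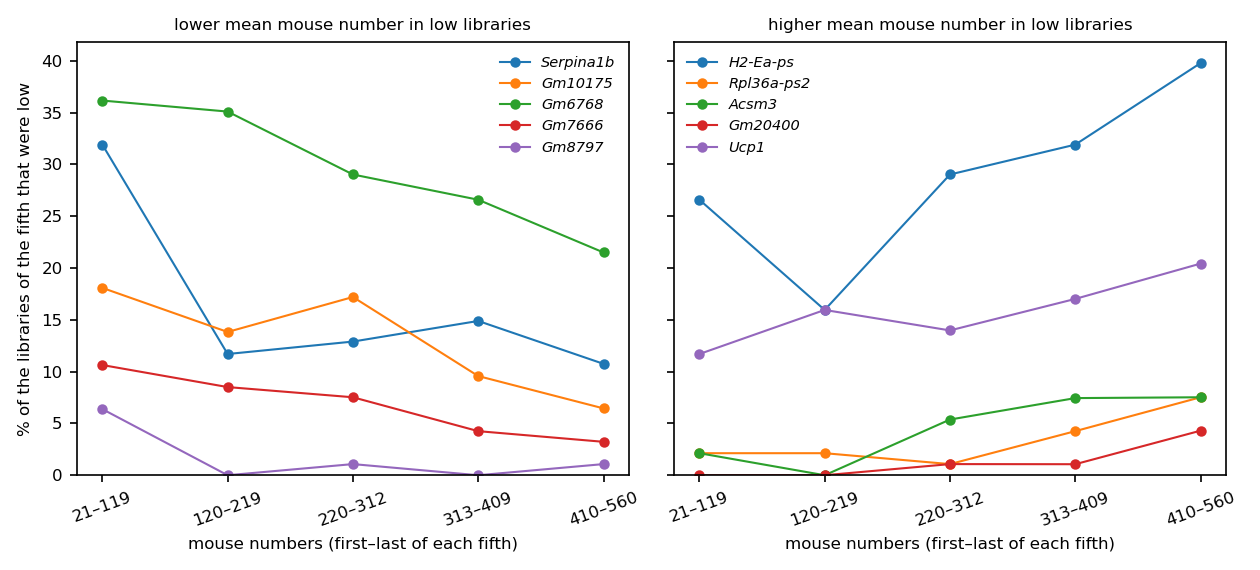
Percent of libraries that were low in each of 5 blocks of mouse numbers (93 or 94 libraries each), for the 5 members with the smallest permutation p in each direction. Serpina1b is highest in the first block (31.9 %) and H2-Ea-ps in the last (39.8 %), and no member passed the adjusted test.

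Level against mouse number gave more calls, most of them in tail members. In edgeR's quasi-likelihood fit with library number in the model, 22 members (10.6 %) passed an adjusted p of 0.05, 20 rising and 2 falling, beside 23.9 % of all 18380 genes tested (12.1 % rising, 11.8 % falling). So the share among members was below the background. Of the 22, 2 were separated (Mmp12 and Sfrp5) and 20 had a tail. With limma, on log2 CPM or on the deposited VST values, 37 members were called (17.8 %, beside 23.6 % of all genes), 10 of them separated and 27 with a tail, 28 rising and 9 falling. The median slope was 0.012 on the log2 scale per 100 mice over members and -0.00075 over all genes. None passed for library number, beside 0.267 % of genes (0.131 % rising, 0.136 % falling), where 10 members had an unadjusted p under 0.05, and neither DESeq2 nor limma called one.

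Macrophage, matrix and plasma protein genes led the rising members. Mmp12 rose by 0.24 ± 0.08 (slope and SE, log2 per 100 mice, edgeR adjusted p = 0.0151), with medians of 11.7, 10.9, 6.63, 10.1 and 25.8 CPM in successive blocks of mouse number. Itgax, the CD11c integrin, rose by 0.21 ± 0.07 (adjusted p = 0.0127) and Cnn1 by 0.22 ± 0.07 (adjusted p = 0.0161). Alb rose by 0.19 ± 0.06 (adjusted p = 0.0185), with 14.6 CPM in the first and 48.6 CPM in the last block. Nat8l, which makes N-acetylaspartate, decreased by 0.10 ± 0.04 (edgeR adjusted p = 0.029), and Eci3, a fatty acid isomerase gene, by 0.09 ± 0.03 (adjusted p = 0.0422). The medians of Nat8l stayed at 94.9 to 100.7 CPM until the last block (71.9 CPM), and those of Eci3 went from 9.48 CPM in the first to 7.94 CPM in the last block.

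These calls moved with the Y-chromosome counts. The last block held 57 libraries with these counts of 93, the others 43 to 48 of 93 or 94. With the levels of Xist and of the Y-chromosome genes in the edgeR model, 3 members were called (12.2 % of all genes), among them Alb (slope 0.30 ± 0.07, adjusted p = 0.000508) and Nrn1 (0.10 ± 0.03, adjusted p = 0.0426). Within libraries with Y-chromosome counts 2 members were called (6.04 % of genes), among them Alb with a slope of 0.40 ± 0.10. Within those without, 3 were (10.5 % of genes), namely Nrn1, Hephl1 and Iigp1. Over all libraries and without these terms edgeR called none of these 3 genes, with adjusted p-values of 0.694, 0.674 and 0.508. Mmp12 and Itgax had slopes of 0.05 ± 0.07 (adjusted p = 0.688) and 0.05 ± 0.06 (adjusted p = 0.647) with Xist and Y in the edgeR model.

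Over whole lists, the gene groups of these members gave the following counts by level in the first edgeR fit, in which 12.1 % of all genes rose and 11.8 % fell. Of 13 liver genes 11 rose with mouse number and 0 fell, with a median slope of 0.23, and with Xist and Y in the model 11 rose as well. Alb is a member and Serpina1b is another. Of 18 macrophage genes 5 rose and 1 fell, and with Xist and Y in the model 0 did. Of 10 leptin and fat expansion genes 3 rose and 0 fell, and then 0. Of 20 complement genes 8 rose and 1 fell, and then 2 and 1, and of 26 MHC genes 7 and 1, and then 1 and 0. Of 17 B cell genes 1 rose and 1 fell in the first fit, and of 30 interferon-induced genes 0 and 0. The part of the other liver genes' rise in that of Alb was not tested.

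The limits of the rule lay within continuous series of genes. Slpi, Fam20c and Tmem56 had 5 low libraries (1.07 %) and were inside, while genes with 4, such as Sncg and Gpnmb (0.855 %), were outside. At the upper limit Rps16-ps2 (38.03 % of libraries), Gm10359 (39.53 %) and Ppp1ccb (39.74 %) were inside and Rpsa-ps10 (40.6 %), Rps6-ps4 (40.81 %) and Gm12671 (40.81 %) outside. By median CPM, Mpc1-ps and Lrrc4c (both 5.01) and Gchfr (5.06) were inside and Bst1 (4.98), Gm49388 (4.97) and Gm14303 (4.95) outside. Of the genes at the median cut-off, 10276 had no low library and 7 had over 40 %.

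The most abundant members were Cfd (median 1562 CPM), Cyp2e1 (1315), Npr3 (1176), Lep (1131), Thbs1 (468.1), Rps2 (393.7), Ifi27l2a (393.1), Nnat (313.7), Rpl9 and Rpl41 (189.3). Thbs1, the matrix protein thrombospondin 1, had 7 low libraries at or below 40.8 CPM. Rpl41, the smallest ribosomal protein, had 13 at or below 18.9 CPM, with 157.2 CPM of its copy Gm10076 in them and 0.337 CPM in the others. Among the other separated members with many low libraries, Gm13394 (36.5 % of libraries), Gm4366 (32.1 %), Gm6768 (29.7 %) and Gm10182 (26.7 %) were processed pseudogenes of which 82 to 100 % of windows were shared. At the stated annotation, the spans of 95 members, introns included, overlapped that of another gene. The share among non-members was not compared. Where the transcripts themselves overlap, reads cannot be told apart without stranded counting.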

How the data were processed

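Per the labels, 468 libraries (KAPA mRNA HyperPrep, poly(A) selected, ERCC spike-ins) came from adipose tissue of DO mice. The authors combined both reads of a pair, aligned them as single-ended reads to a transcriptome of all founder strains, estimated expected counts with EMASE (run through GBRS, versions not given in the sources used here) and filtered genes with low reads (build GRCm38). The deposited estimated counts are not whole numbers. They also deposited log2-scale values from the DESeq2 variance stabilizing transformation (VST) after batch regression, used here only as an alternative. The deposited annotation table gave positions, of which 99.25 % match GENCODE M21 within 1 base (205 of 208 members), the source of transcripts and biotypes.

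CPM used unrounded counts over the library total. Counts were rounded for edgeR (4.0.16, TMM, quasi-likelihood, genes with 10 counts in at least 0.5 of libraries, slope per 100 mice, library number as covariate) and DESeq2 (1.42.0). The limma fits (3.58.1) used log2 CPM of unrounded counts (prior count 2) or the deposited VST values. All fits used Benjamini-Hochberg adjustment and R 4.3.3. SEs of edgeR slopes are the slope over the root of its F statistic. Other steps used Python 3.11.15 (numpy 2.4.6, pandas 2.3.3). Permutation tests drew 100000 orders of mouse number (smallest p 1e-05). Fits were tested on simulated data. The study's covariates sex, generation and wave are not in the labels. Library number was the covariate instead, and it is no measure of them. The first edgeR fit is therefore not adjusted for sex, and the fit with Xist and Y-chromosome genes stands beside it.

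There were 208 members in 468 libraries (101 separated, 107 with a tail). Members, gene lists and clusters were chosen with earlier results of these data known. Genes named were the 12 separated members with most low libraries, the 10 most abundant, up to 4 per list, members of the 6 neighbour clusters with most shared low libraries or of any with 4 or more, the 8 nearest to the threshold for mouse number per direction, the 5 largest called slopes per direction, and 3 on each side of every limit. Slc5a7, Mmrn1, Ccl21a, Gvin1, Trim5, Rpl35, Gm2000, Atp5g2, Gm13841, Gm8210, Nrn1, Hephl1 and partner genes were added after their values were seen, as was the 50 % limit on shared windows. Some genes that this rule selects are not reported here. A mouse gave 1 library, so error is the spread between mice.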

Additional observations from a re-analysis of the deposited data

How the results depend on the processing

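The members were 0.897 % of all genes, and this depends on the line that defines a low library and on the median cut-off. It was 1.86 % with the line at 0.2 times the median, 2.37 % with a median of 1 CPM or more and 0.582 % with a median of 10 CPM or more. It stayed within 1.5 times under a line at 0.05, TMM-scaled totals, totals without CT010467.1 and without the shallowest libraries, and under 4 alternatives added after seeing the data (without the 5 libraries with the most low members, within libraries without or with Y-chromosome counts, and with 78 members summed with their closest copy, which left 0.617 %). Separated members, 48.6 % of members, were 55 genes with the band widened to 0.5 times the median. Members near another member were 59 within 1 Mb and 97 within 2 Mb. Calls for mouse number by low libraries were 0, and 1 with the line at 0.05 or at 0.2. Calls by level were 22, and 37 with limma on log2 CPM or on the deposited VST values, 3 with Xist and Y-chromosome genes in the model, 3 within libraries without and 2 within libraries with Y-chromosome counts. The cause of these differences was not tested. Calls for library number were 0 with limma, without the filter on low counts and without the shallowest libraries. No paired analysis was possible because there was only 1 group.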
